A study of Arabidopsis thaliana with 27 samples.

Results

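The genes described here encode cytosolic ribosomal proteins and the ribosome-bound scaffold protein RACK1 of Arabidopsis thaliana. They were taken from the table by gene identifier. They numbered 56 of the 33602 genes in the table, and all 56 reached the mean of 1 TPM (transcripts per 1000000 transcripts) that was required for testing. The small (40S) subunit was represented by 33 genes for 13 proteins (Sa, S2, S3, S3a, S4 to S11 and S18). The large (60S) subunit was represented by 20 genes for 13 proteins (L3, L4, L5, L8, L9, L10, L23a, L24, L27a, L28 and the stalk proteins P0, P1 and P2). The remaining 3 genes encode RACK1. For 20 of the 27 proteins more than 1 gene copy (paralog) was among the 56. The RefSeq gene products matched the protein names.

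RNA was measured in shoots of wild-type Col-0 seedlings. The seedlings grew for 7 days on agar plates with iron and phosphate and were then moved to plates with both nutrients (+Fe+P, the controls), without iron (-Fe+P) or without iron and deficient in phosphate (-Fe-P) for 39, 52 or 76 h. Per the study's methods the -Fe-P medium still held a small remainder of the control's phosphate, while iron was left out altogether. Each of the 9 groups had 3 biological replicates, 27 samples in all, with no genotype other than wild type and all plants under continuous light. A group deficient in phosphate alone was not analysed here. The effect of low phosphate by itself therefore cannot be told apart from that of both deficiencies. In -Fe-P against -Fe+P both media lack iron and differ in the supply of potassium phosphate. The methods name no other potassium salt in place of the part left out, so the potassium supply may differ too. The part of potassium was not tested.

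Every protein made in the cytosol is synthesised by ribosomes in which a small subunit reads the mRNA and a large subunit joins the amino acids. In plants nearly every ribosomal protein is encoded by a small family of paralogs, and their mRNAs are among the most abundant of growing tissue. RACK1 is a propeller-shaped protein of WD40 repeats that sits on the head of the small subunit and binds signalling proteins there. Transcription of these genes is known to follow growth and nutrient supply, in part through the TOR kinase, whose pathway ends in phosphorylation of ribosomal protein S6.

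The TPM values of each sample sum to 1000000, so a TPM is a share of the measured mRNA and not an amount per cell. In these whole shoots fewer cells of a type and less RNA per cell cannot be told apart. Low values fell on whole-read steps in each sample, which implied depths of 25.6 to 56.5 megareads (median 44.2), and a gene at 1 to 1.1 TPM then rested on a median of 35 reads. The library of -Fe-P replicate 1 at 39 h stood apart: 507 genes differed at least 2-fold from both other replicates, against 12 to 115 genes in every other library. Green shoot markers (4 genes, among them RBCS1A) summed to between 30231 and 44814 TPM, and none was at 0. Root markers (8 genes, 2 of them at the mean required for testing) summed to between 2.44 and 29.7 TPM.

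In shoots deficient in both nutrients the transcripts of all 56 genes were lower than in +Fe+P at 52 and at 76 h. In the limma fit of log2(TPM + 0.5) a gene passed at an adjusted p below 0.05 (Benjamini-Hochberg over the 18910 genes tested) and was called if it had also changed at least 2-fold. Fold changes are on this scale, which understates those of genes with low values. At 39, 52 and 76 h, 17, 56 and 56 of the 56 genes passed as lower, against 5.18%, 11.6% and 21.9% of all genes tested. Called lower were 0, 4 and 45 of them, against 0.550%, 0.793% and 2.60% of all genes. None passed as higher at any of these times in limma, also at an unadjusted p below 0.05, by which 33 genes were lower at 39 h. Counts at an unadjusted p, here and below, have no share of all genes beside them. The median log2 fold change of the 56 genes fell from -0.25 at 39 h to -0.70 at 52 h and -1.22 at 76 h, where single genes ranged from -1.82 to -0.54. The median over all genes tested was 0.04, 0.11 and 0.10. All 3 -Fe-P samples lay below all 3 +Fe+P samples for 30, 56 and 56 genes at the 3 times. Counts of this kind, here and against -Fe+P below, are given for the 56 genes only and have no background over all genes. Nothing in the labels says more of the replicates than that they are biological. The limma p-values set a difference of group means against a spread estimated over all 27 samples, and reach no further than these samples. Without the library that stood apart, 36 genes passed as lower at 39 h and the median was -0.36. Of the other libraries of that comparison, 4 also moved the count by more than 1.5 times: it was 9 to 11 without any 1 of the +Fe+P replicates and 6 without -Fe-P replicate 2.

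**Figure D1:**
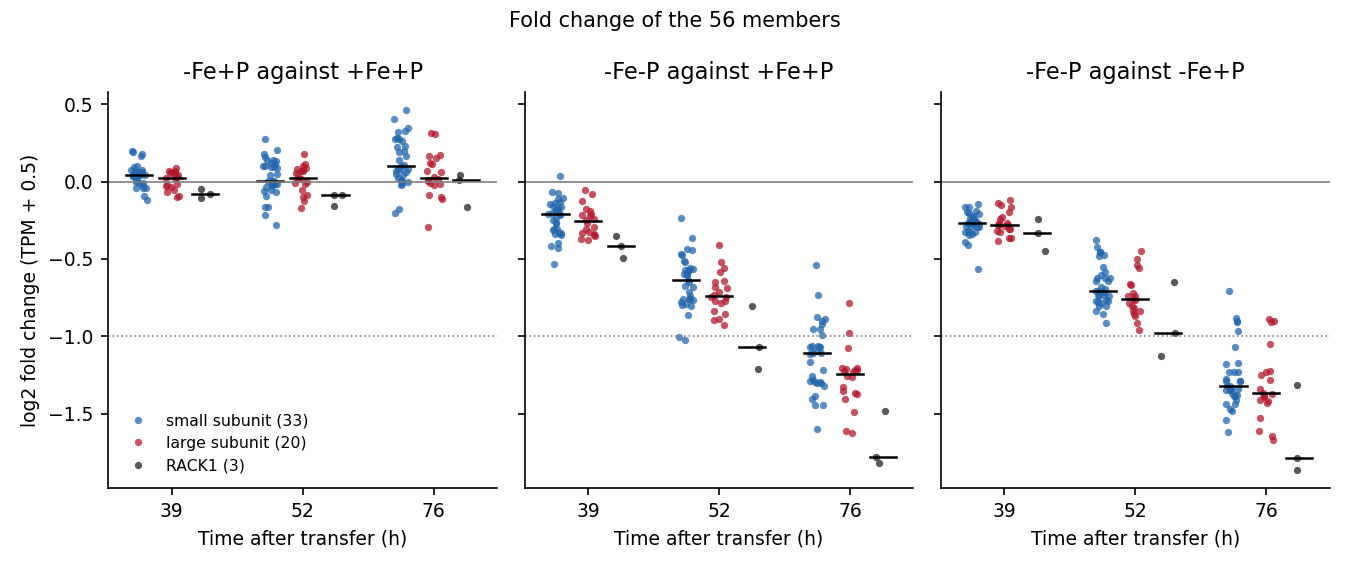
Log2 fold change (limma, log2(TPM + 0.5)) of each of the 56 genes in the 3 comparisons of media at 39, 52 and 76 h; points are genes, grouped as small subunit, large subunit and RACK1, bars are medians, and the dotted line marks a 2-fold fall. In -Fe-P against +Fe+P the points move down from a median of -0.25 at 39 h to -1.22 at 76 h, while in -Fe+P against +Fe+P the medians at the 3 times were 0.03, 0.01 and 0.07.

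Summed over the 53 ribosomal protein genes, the share of all TPM at 76 h was 1.56 ± 0.0944% (SD, n = 3) with both nutrients, 1.71 ± 0.0971% without iron and 0.679 ± 0.0596% with both deficient. The 3 RACK1 genes together held 0.0577 ± 0.00356%, 0.0541 ± 0.00481% and 0.0193 ± 0.00334% (SD, n = 3). The other listed cytosolic ribosomal protein genes were then added (219 genes in all). The share in the 3 -Fe-P samples was 5.87, 4.43 and 4.91% at 39 h and 3.73, 3.29 and 3.35% at 52 h. At 76 h it was 2.48, 2.13 and 2.54%. The +Fe+P samples gave 5.74, 5.72 and 5.83%, 5.38, 5.42 and 5.17% and 5.70, 5.17 and 5.03% at these times. The -Fe-P values lay below all +Fe+P values at 52 and 76 h, and at 39 h the highest of them was that of the library that stood apart. Ribosomal proteins of the plastid (28 nuclear genes) held 1.55 ± 0.0973% of TPM in the controls and 1.27 ± 0.0764% in -Fe-P at 76 h.

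**Figure D2:**
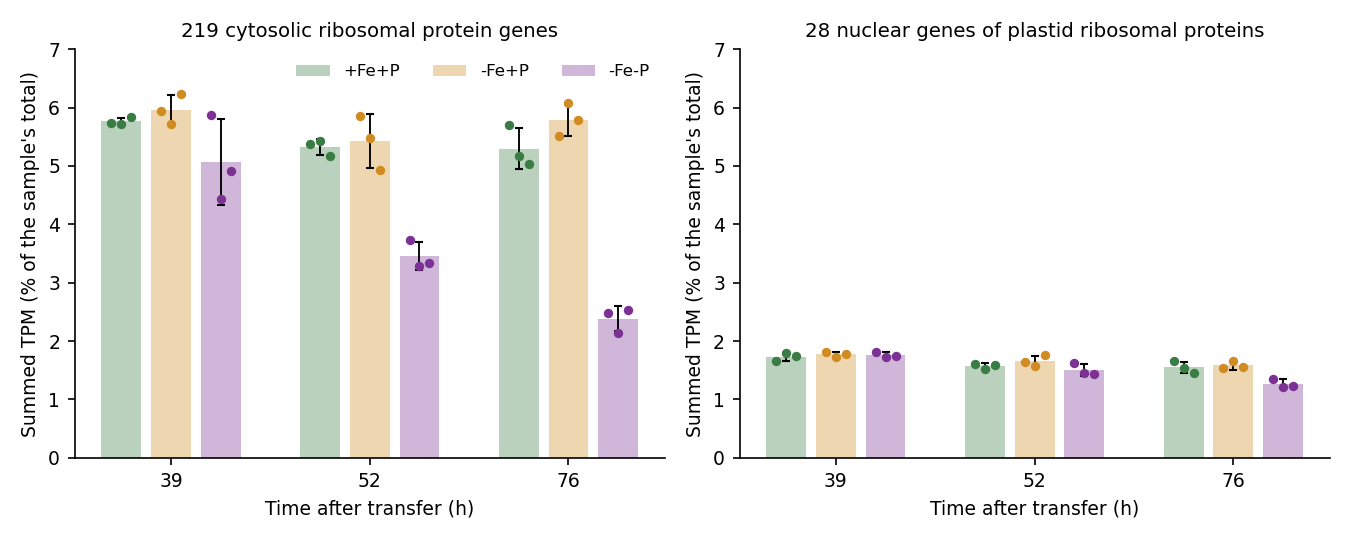
Summed TPM, as percent of all TPM, of 219 cytosolic and 28 plastid ribosomal protein genes by medium and time; bars are means of 3 samples, error bars SD and points samples. At 76 h the cytosolic share was 5.30 ± 0.351% with both nutrients, 5.79 ± 0.277% without iron and 2.39 ± 0.221% with both deficient.

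Against shoots that lacked iron but had full phosphate, the same direction was seen. These comparisons share their -Fe-P samples with the ones above. Of the 56 genes, 11, 56 and 56 passed as lower in -Fe-P in this comparison at the 3 times, against 2.07%, 17.4% and 28.8% of all genes, and 0, 1 and 48 were called, against 0.0740%, 0.994% and 4.87%. The gene called at 52 h was RACK1C (AT3G18130). At 39 h, 42 genes had an unadjusted limma p below 0.05, and all of these were lower. The shares of all genes given above are at an adjusted p and are no background for this count. Medians were -0.27, -0.73 and -1.34, beside -0.0048, -0.03 and -0.03 over all genes. All samples of -Fe-P lay below all of -Fe+P for 31, 55 and 56 genes; the exception at 52 h was RPS5A (AT3G11940), whose -Fe-P values reached 250.2 TPM and whose lowest -Fe+P value was 249 TPM. Without the library that stood apart 37 genes passed at 39 h, and leaving out any other library of that comparison, except -Fe+P replicate 2, lowered the count to between 1 and 4.

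Removal of iron alone moved few of these genes. In -Fe+P against +Fe+P, 0, 0 and 1 genes passed as lower at 39, 52 and 76 h, against 2.45%, 3.57% and 9.43% of all genes, and 0, 1 and 12 as higher, against 3.43%, 28.5% and 29.5%. At an unadjusted limma p below 0.05 the counts were 0, 1 and 1 lower and 1, 1 and 12 higher, and no gene reached a 2-fold change. The gene higher at 52 h was the S3a paralog AT4G34670 (log2 fold change 0.27, limma adjusted p = 0.0262), and at 76 h it had the largest value of the 12 (0.46, limma adjusted p = 0.000341). Of the 12 genes, 10 were among the 33 small-subunit genes (1 each of S2, S3, S3a, S4, S6, S7, S8, S10, S11 and S18). The other 2 were among the 20 large-subunit genes (L5 AT3G25520 and P0 AT3G09200), and 29.5% of all genes passed as higher. The gene lower at 76 h was RPL10B (AT1G26910), at -0.30 with a limma adjusted p of 0.0422. It no longer passed when any 1 of 5 libraries of the comparison was left out (+Fe+P replicates 1 and 3 and the 3 -Fe+P replicates). In the comparisons with +Fe+P the median over all genes was 0.16 and 0.11 for -Fe+P and 0.11 and 0.10 for -Fe-P at 52 and 76 h. When samples were instead scaled by the median of ratios, which sets these medians close to 0, only AT4G34670 passed as higher at 76 h in -Fe+P (0.33, limma adjusted p = 0.0145), while 3 genes passed as lower (RPL10B, the L23a paralog AT3G55280 and the P0 paralog AT3G11250), and the direction of 23 of the 56 genes changed. At 52 h 5 genes then passed as lower in -Fe+P and none as higher. The 56 genes that were lower in -Fe-P than in +Fe+P at 52 and 76 h all passed as lower under that scaling as well.

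Within the -Fe-P medium the levels went down from each time to the next. From 39 to 52 h 55 genes passed as lower (19.7% of all genes) and from 52 to 76 h again 55 (14.2%), with medians of -0.58 and -0.52. The exceptions were the S8 paralog AT5G59240 in the first interval (-0.42, limma adjusted p = 0.071) and the S9 paralog AT5G39850 in the second (-0.04, limma adjusted p = 0.864). In +Fe+P 0 genes passed as lower in either interval in limma (8.42% and 0.00% of all genes), and 2 and 1 did at an unadjusted p below 0.05. In -Fe+P 2 and 0 genes passed as lower in limma (6.01% and 6.05% of all genes), with 9 and 0 lower at an unadjusted p below 0.05. The 2 genes were the S2 paralog AT3G57490 and the P0 paralog AT3G11250, and the count became 0 to 5 when any 1 library was left out.

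The change of the response itself was tested as the difference between the log2 fold changes at 76 and at 39 h. Against +Fe+P, 55 genes had a lower response at 76 h (13.6% of all genes), with a median difference of -0.96 and a range of -1.40 to -0.46. Against -Fe+P, 54 genes did (17.3% of all genes), with a median of -1.04. The S9 paralog AT5G39850 did not pass in either test (-0.46 and -0.32), and AT5G59240 did not pass in the latter (-0.62). Both were transcribed at low levels, with 13.2 ± 0.679 and 1.94 ± 0.383 TPM (SD, n = 3) in +Fe+P at 76 h.

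The largest falls were those of RACK1C and RACK1B. The 3 RACK1 genes were ranked 1, 2 and 7 of the 56 by log2 fold change in -Fe-P against +Fe+P at 76 h. RACK1A (AT1G18080, chr1:6222201-6224242) carried most of the RACK1 mRNA. RACK1A stood at 392, 363 and 352 TPM in the 3 +Fe+P samples at 76 h, at 298, 358 and 331 TPM in -Fe+P and at 140.4, 109.5 and 148 TPM in -Fe-P. The -Fe-P samples lay below all others, and the mean fell 2.79-fold against +Fe+P (log2 fold change -1.48, standard error 0.11, adjusted p = 3.3e-10 in limma). RACK1B (AT1G48630, chr1:17981636-17983377) was present at 117 ± 8.08 TPM (SD, n = 3) in +Fe+P, against 369 ± 20.7 TPM for RACK1A. In single samples it stood at 127, 112 and 113 TPM in the 3 +Fe+P samples at 76 h, at 106, 124 and 124 TPM in -Fe+P and at 37.6, 25.2 and 40.7 TPM in -Fe-P. It fell 3.43-fold (log2 fold change -1.78, standard error 0.15, adjusted p = 1.92e-09 in limma). RACK1C (AT3G18130, chr3:6210878-6212551) was the least abundant copy. RACK1C stood at 99.9, 86.4 and 87.7 TPM in the 3 +Fe+P samples at 76 h, at 84.1, 100.1 and 98.2 TPM in -Fe+P and at 26.6, 20.6 and 30.1 TPM in -Fe-P. It fell 3.53-fold (log2 fold change -1.82, standard error 0.13, adjusted p = 7.97e-11 in limma), and for both minor copies the groups with full phosphate overlapped each other while the -Fe-P group was separate. At 52 h RACK1A stood at 223, 190.0 and 193 TPM in -Fe-P against 355, 368 and 335 TPM in +Fe+P, a log2 fold change of -0.81. RACK1B and RACK1C were already past 2-fold at that time, with -1.07 and -1.21. At 39 h the log2 fold changes were -0.35 for RACK1A, -0.41 for RACK1B and -0.49 for RACK1C, with limma adjusted p-values of 0.0351, 0.0618 and 0.00906. Between -Fe+P and +Fe+P the 3 genes did not pass at any time, with values from -0.17 to 0.04. Against -Fe+P at 76 h the fall in -Fe-P was -1.31 for RACK1A, -1.79 for RACK1B and -1.86 for RACK1C. The share of RACK1A among the copies rose: the log2 ratio of RACK1A to RACK1C was 2.01 ± 0.050 (SD, n = 3) with both nutrients, 1.80 ± 0.046 without iron and 2.35 ± 0.059 with both deficient at 76 h, and the groups did not overlap.

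**Figure D3:**
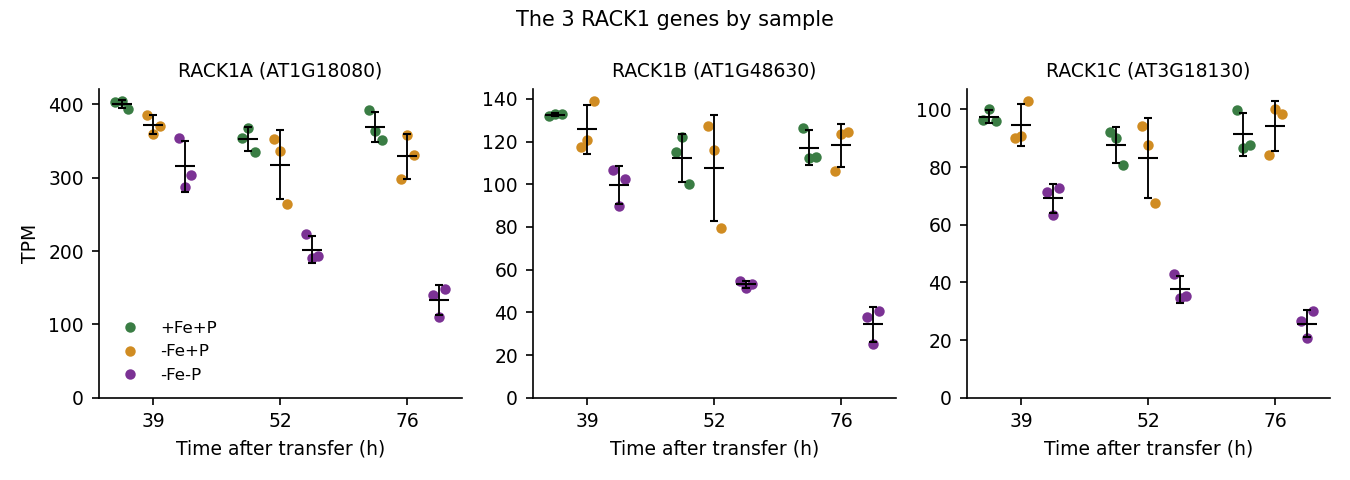
TPM of RACK1A, RACK1B and RACK1C in each of the 27 samples by medium and time; points are samples, dashes and bars mean ± SD of 3 samples. In -Fe-P at 76 h RACK1A lay between 109.5 and 148 TPM, below every sample of the other media at that time.

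The 250 bases before the transcription start of RACK1A and RACK1B are shown because these copies differed in level and in the size of their fall while both windows held site II motifs and neither held a telo box, the elements described for ribosomal protein promoters in plants. Sequences are from RefSeq (assembly TAIR10.1), 5′ to 3′ on the strand of the gene, and capitals mark site II motifs (TGGGCC or TGGGCT on either strand). The window of RACK1C overlaps the neighbouring gene AT3G18140, which encodes the TOR complex protein LST8, and is not printed.
RACK1A (chr1:6221951-6222200, plus strand): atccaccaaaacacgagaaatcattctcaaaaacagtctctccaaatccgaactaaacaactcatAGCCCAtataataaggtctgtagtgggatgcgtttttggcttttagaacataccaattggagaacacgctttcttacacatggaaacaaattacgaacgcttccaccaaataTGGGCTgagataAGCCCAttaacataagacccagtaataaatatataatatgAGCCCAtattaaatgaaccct
RACK1B (chr1:17983378-17983627, minus strand): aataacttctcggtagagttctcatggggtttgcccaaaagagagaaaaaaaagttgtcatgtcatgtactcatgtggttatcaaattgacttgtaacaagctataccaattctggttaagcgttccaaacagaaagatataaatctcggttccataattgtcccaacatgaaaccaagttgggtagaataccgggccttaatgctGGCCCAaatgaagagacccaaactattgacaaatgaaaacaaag

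For the small subunit, all 33 genes were lower in -Fe-P than in +Fe+P at 76 h, 24 of them at least 2-fold, with a median of -1.11 and a range of -1.60 to -0.54. The lowest value belonged to AT4G31700, a gene for S6, the protein that S6 kinase phosphorylates. This S6 gene stood at 481, 440.5 and 425 TPM in the 3 +Fe+P samples at 76 h, at 418, 492 and 459.7 TPM in -Fe+P and at 152, 142 and 149.6 TPM in -Fe-P. It fell 3.03-fold (log2 fold change -1.60, standard error 0.093, adjusted p = 4.91e-12 in limma), and its groups did not overlap between -Fe-P and the other media. RPS5B (AT2G37270) encodes S5, a protein of the subunit head near the path of the mRNA. RPS5B stood at 150.3, 133 and 129.8 TPM in the 3 +Fe+P samples at 76 h, at 135, 152 and 157 TPM in -Fe+P and at 52.6, 41.5 and 58.3 TPM in -Fe-P. Its log2 fold change was -1.44 (limma adjusted p = 1.49e-09). AT3G04840 encodes S3a, a protein of the platform from which the mRNA leaves. AT3G04840 stood at 521, 486 and 461 TPM in the 3 +Fe+P samples at 76 h, at 450.2, 525 and 489 TPM in -Fe+P and at 188, 157 and 196 TPM in -Fe-P. It fell 2.72-fold (limma adjusted p = 3.05e-11). AT3G57490 is the weakest of 3 genes for S2, a protein of the mRNA entry channel. AT3G57490 stood at 23.5, 20.4 and 22.5 TPM in the 3 +Fe+P samples at 76 h, at 19.8, 23.7 and 23.3 TPM in -Fe+P and at 8.19, 7.12 and 8.86 TPM in -Fe-P. The fall was 2.65-fold (limma adjusted p = 1.72e-09), and at 52 h it already came to a log2 fold change of -1.03.

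The smallest fall of the small-subunit genes was that of RPS18C (AT4G09800). S18 sits on the head of the subunit and forms a bridge to the large subunit. RPS18C stood at 233, 214 and 209 TPM in the 3 +Fe+P samples at 76 h, at 274, 286 and 273 TPM in -Fe+P and at 155, 134 and 163 TPM in -Fe-P. Its level in -Fe-P was 68.9% of that in +Fe+P (log2 fold change -0.54, standard error 0.092, adjusted p = 3.86e-05 in limma). Next came AT5G35530, a gene for S3, which lines the mRNA entry. AT5G35530 stood at 207, 205 and 199.6 TPM in the 3 +Fe+P samples at 76 h, at 232, 248 and 237 TPM in -Fe+P and at 125, 115 and 127 TPM in -Fe-P. The log2 fold change was -0.74 (limma adjusted p = 1.02e-07). Both genes were higher without iron alone (-Fe+P) at 76 h (0.35 and 0.23), and neither passed when scaled by the median of ratios. The remaining small-subunit genes lay between. The genes for Sa, a protein needed to assemble the subunit, were at -1.29 and -1.29 on the log2(TPM + 0.5) scale, and the former held 426 ± 25.9 TPM (SD, n = 3) and the latter 8.21 ± 0.456 TPM in +Fe+P at 76 h. The S4 genes were at -1.17, -1.11 and -0.90, and the S7 genes at -1.30, -1.07 and -0.92. The most abundant of all 56 genes was the S8 gene AT5G20290, with 808 ± 36.8 TPM in the controls and 387 ± 12.2 TPM in -Fe-P (SD, n = 3). The least abundant was its paralog AT5G59240, with 1.94 ± 0.383 and 0.645 ± 0.257 TPM. Their log2 fold changes were -1.06 and -1.11 on the log2(TPM + 0.5) scale, which understates the fall of AT5G59240. S10, another head protein, gave -1.22, -1.07 and -1.07 for its 3 genes, S11 gave -1.28, -1.11 and -1.09, and S9 gave -1.26 and -0.89.

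All 20 large-subunit genes were lower in -Fe-P at 76 h, 18 of them at least 2-fold, with a median of -1.25 and a range of -1.63 to -0.78. The lowest value was that of AT1G70600, which encodes L27a. AT1G70600 stood at 581, 513 and 494 TPM in the 3 +Fe+P samples at 76 h, at 501, 535 and 535 TPM in -Fe+P and at 188, 130.4 and 203 TPM in -Fe-P. It fell 3.09-fold (log2 fold change -1.63, standard error 0.14, adjusted p = 4.91e-09 in limma). AT2G27710 encodes P2, which with P0 and P1 forms the stalk that recruits elongation factors to the ribosome. The P2 gene stood at 289, 259 and 254 TPM in the 3 +Fe+P samples at 76 h, at 267, 295 and 275 TPM in -Fe+P and at 89.8, 74 and 99.4 TPM in -Fe-P. It fell 3.05-fold (log2 fold change -1.61, standard error 0.12, adjusted p = 2.69e-10 in limma). The other stalk genes fell by less: the main P0 gene AT3G09200 was at -1.22, its minor paralog AT3G11250 at -0.98 and the P1 gene AT1G01100 at -1.21. SAC52 (AT1G14320) encodes the major form of L10, a protein that joins the large subunit late in its assembly. SAC52 stood at 609, 553 and 559.6 TPM in the 3 +Fe+P samples at 76 h, at 514, 545 and 547 TPM in -Fe+P and at 212, 174 and 228 TPM in -Fe-P. The fall was 2.81-fold (limma adjusted p = 1.02e-10). RPL24A (AT2G36620) encodes L24, which bridges the subunits. RPL24A stood at 254, 238 and 223 TPM in the 3 +Fe+P samples at 76 h, at 234, 257 and 226 TPM in -Fe+P and at 83.8, 96.5 and 88.7 TPM in -Fe-P. Its log2 fold change was -1.40, against -1.07 for its paralog STV1 (AT3G53020), a gene known for its part in reinitiation of translation after upstream reading frames. In each of these 4 genes the -Fe-P samples lay below all samples of the other media.

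The smallest falls in the large subunit were those of SAG24 (AT1G66580), a gene for L10 first described as associated with senescence, and of AT3G11250. SAG24 stood at 245, 229.9 and 221 TPM in the 3 +Fe+P samples at 76 h, at 243, 265 and 247 TPM in -Fe+P and at 136, 129 and 138 TPM in -Fe-P. Its log2 fold change was -0.78 (limma adjusted p = 1.71e-08). AT3G11250 stood at 40.5, 39 and 35.7 TPM in the 3 +Fe+P samples at 76 h, at 32.7, 37.7 and 38.2 TPM in -Fe+P and at 20.1, 17.2 and 20.6 TPM in -Fe-P. The -Fe-P group did not overlap the others for either gene. The genes of proteins at the core of the subunit fell by similar amounts. L3 and L8, which lie near the site of peptide bond formation, were at -1.22 and -1.26. L4, which reaches into the tunnel of the growing peptide, was at -1.38 and -1.22 for its 2 genes, and L23a, at the tunnel exit, at -1.37 and -1.26. L5, which carries the 5S rRNA, was at -1.33 and -1.21. L9 (PGY2) was at -1.23 and L28 at -1.35.

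To compare the subunits, the mean log2(TPM + 0.5) of the 20 large-subunit genes was subtracted from that of the 33 small-subunit genes in each sample. At 76 h the difference was -0.75, -0.75 and -0.72 with both nutrients, -0.66, -0.66 and -0.63 without iron and -0.61, -0.62 and -0.58 with both deficient. The groups did not overlap. The small-subunit genes had the lower mean in every sample, and the gap narrowed by 0.13 between +Fe+P and -Fe-P and by 0.09 between +Fe+P and -Fe+P. At 52 h the means were -0.73 ± 0.016 with both nutrients, -0.73 ± 0.040 without iron and -0.66 ± 0.035 with both deficient, and at 39 h -0.77 ± 0.012, -0.73 ± 0.0085 and -0.75 ± 0.0051 (SD, n = 3). The difference was small beside the fall shared by both subunits, and a pseudocount of 0.1 or 1 moved its value in -Fe-P at 76 h to -0.63 or -0.58. The other cytosolic ribosomal protein genes gave medians of -1.08 for 50 small-subunit genes and -1.22 for 101 large-subunit genes in -Fe-P against +Fe+P at 76 h. These are descriptions, since the genes of a subunit are not replicates of it.

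Paralogs of one protein were compared as the log2 ratio of their values within a sample. In each of the 38 pairs, the mean ratio of -Fe-P was set against that of +Fe+P over the 3 times by an exact permutation test (two-sided, medium labels permuted within each time, 8000 relabellings, smallest possible p 0.00025). In 29 pairs from 15 proteins the ratio differed, with p-values adjusted over the 38 pairs, and in 32 pairs at an unadjusted p below 0.05. The differences were small: the median size was 0.16 on the log2 scale, 16 of the 29 pairs differed by less than 0.25, and 1 pair exceeded 0.5. Under pseudocounts of 0.1 and 1 the number of pairs was 32 and 27. Pairs share genes within a family and are not independent. Pairs of other genes were not tested, so the count of 29 is not shown to be particular to these paralogs. Paralogs among the 56 genes were 68.2 to 92.7% identical in their coding sequence and 56 to 100% in protein. Copies outside the 56 were not compared. How reads that match more than 1 copy were assigned is not given in the sources used here, so a ratio between close copies is uncertain.

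The pair with a difference above 0.5 was within S18. The family has 3 genes that encode the same protein, 100% identical between all copies. PFL (AT1G22780) stood at 213, 193 and 186 TPM in the 3 +Fe+P samples at 76 h, at 198, 220.4 and 208 TPM in -Fe+P and at 85.4, 68.4 and 87.4 TPM in -Fe-P. AT1G34030 stood at 181, 163 and 159 TPM in the 3 +Fe+P samples at 76 h, at 161, 182 and 177 TPM in -Fe+P and at 74.7, 57.4 and 71.8 TPM in -Fe-P. RPS18C, given above, fell least, and the copies drew apart. The log2 ratio of AT1G34030 to RPS18C went from -0.38 ± 0.015 in +Fe+P through -0.68 ± 0.076 in -Fe+P to -1.15 ± 0.090 in -Fe-P at 76 h (SD, n = 3). Over the 3 times it differed by -0.54 (exact permutation p = 0.00025, 0.000679 adjusted over the 38 pairs). The ratio of PFL to RPS18C differed by -0.47 with the same p-values, and -Fe-P lay below +Fe+P in all samples at each of the 3 times for both ratios. PFL and AT1G34030 differed from each other by 0.08 (adjusted p = 0.0099 in the same permutation test). The -Fe+P samples lay between the other media at 76 h, with a PFL to RPS18C ratio of -0.41 ± 0.049.

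The S6 genes exchanged rank. AT4G31700 was the stronger copy in +Fe+P, with a log2 ratio to AT5G10360 of 0.22 ± 0.023 at 76 h, and the weaker one in -Fe-P, with -0.43 ± 0.048 (SD, n = 3). AT5G10360 stood at 406, 380.5 and 369.7 TPM in the 3 +Fe+P samples at 76 h, at 448, 499 and 458 TPM in -Fe+P and at 201, 187 and 209 TPM in -Fe-P. The -Fe+P ratio was -0.04 ± 0.054. At 39 h the ratio in -Fe-P, 0.31 ± 0.11, overlapped that in +Fe+P, 0.38 ± 0.018, and the difference over the 3 times was -0.34 (exact permutation p = 0.00175, 0.00332 adjusted over the 38 pairs). In the L10 family the major copy SAC52 lost ground to SAG24, with a ratio of 1.30 ± 0.038 in the controls and 0.60 ± 0.15 in -Fe-P at 76 h and a difference over the times of -0.45 (adjusted p = 0.000679, exact permutation test). RPL10B, the minor copy, stood at 20.2, 16 and 17.5 TPM in the 3 +Fe+P samples at 76 h, at 13.4, 14.7 and 15.2 TPM in -Fe+P and at 7.01, 7.03 and 8.30 TPM in -Fe-P. It fell to 43.3% of its +Fe+P level. Differences of 0.3 to 0.5 in size were also found for S3 (AT3G53870 against AT5G35530, -0.42), S2 (AT2G41840 against AT3G57490, 0.38), S3a (AT3G04840 against AT4G34670, -0.37), S5 (RPS5B against RPS5A, -0.34) and L10 (RPL10B against SAG24, -0.32), each with an adjusted p of 0.000679 in the permutation test. For RACK1 the ratio of RACK1A to RACK1C differed by 0.30 (adjusted p = 0.000679), of RACK1A to RACK1B by 0.21 (adjusted p = 0.00211) and of RACK1B to RACK1C by 0.09 (adjusted p = 0.0429), all in the exact permutation test. The pairs of Sa (0.10), S8 (0.15), S9 (-0.0033) and L4 (0.04) did not pass, nor did the 3 pairs of S10, 1 pair of S11 and 1 of S7.

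**Figure D4:**
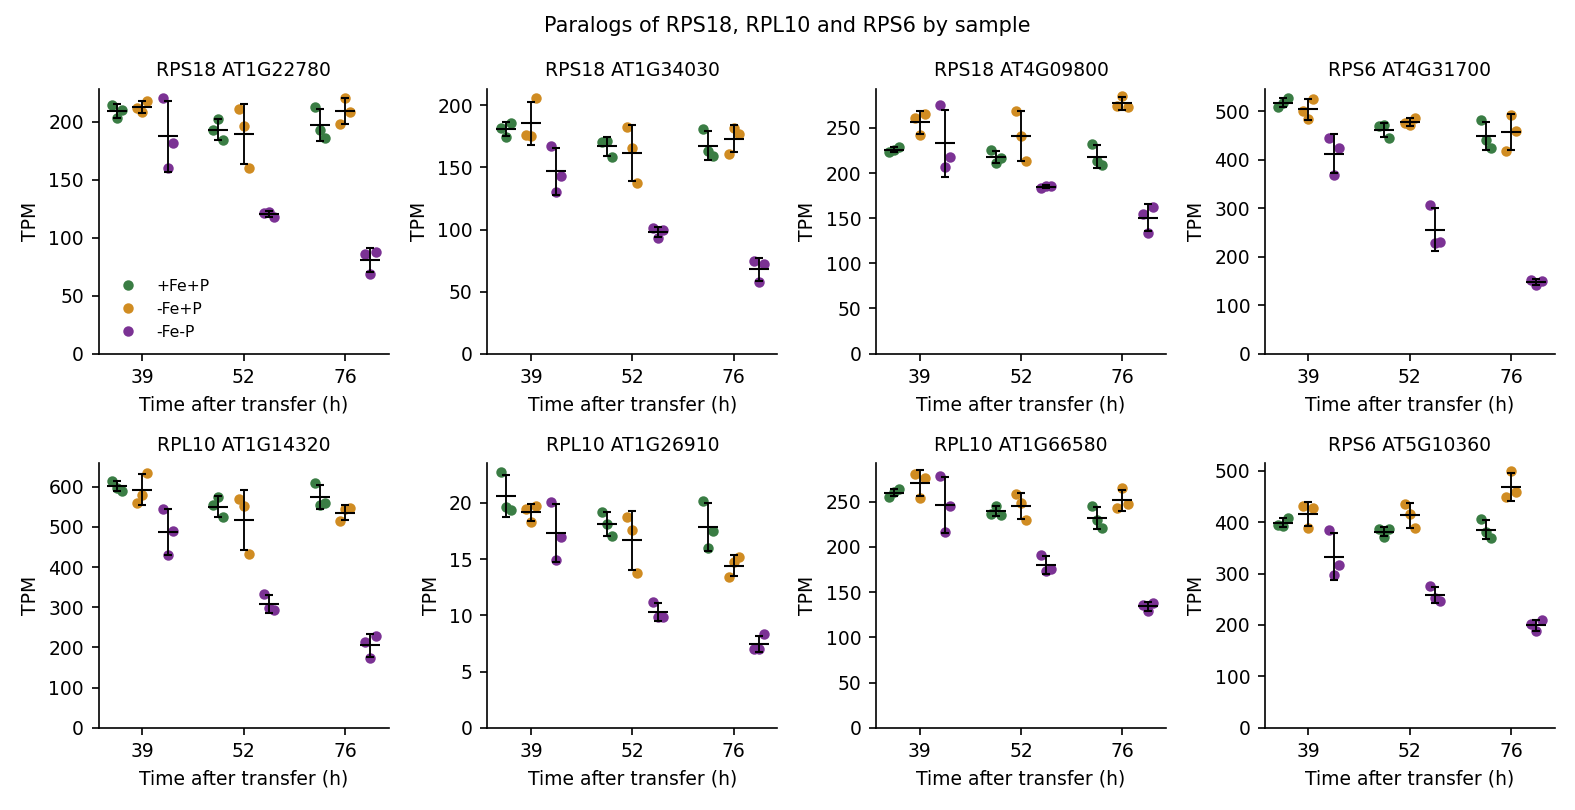
TPM of the 3 S18, 3 L10 and 2 S6 genes in each sample by medium and time; points are samples, dashes and bars mean ± SD of 3 samples, and each panel has its own axis. In -Fe-P at 76 h RPS18C kept 68.9% of its +Fe+P level, PFL 40.8% and AT1G34030 40.5% (ratios from the limma fit).

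The upstream windows of the S18 and S6 copies that drew apart are shown in the same form as for RACK1, with capitals for site II motifs, of which RPS18C held none. The window of PFL held no site II motif either, and its log2 fold change at 76 h was -1.29, beside -0.54 for RPS18C. It overlaps the neighbouring gene AT1G22770 and is not printed.
AT1G34030 (S18) (chr1:12371555-12371804, minus strand): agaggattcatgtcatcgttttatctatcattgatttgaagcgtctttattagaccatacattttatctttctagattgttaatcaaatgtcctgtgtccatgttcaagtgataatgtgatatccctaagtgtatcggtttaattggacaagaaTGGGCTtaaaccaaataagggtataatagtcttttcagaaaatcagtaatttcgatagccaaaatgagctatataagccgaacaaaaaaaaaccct
RPS18C (S18) (chr4:6173462-6173711, plus strand): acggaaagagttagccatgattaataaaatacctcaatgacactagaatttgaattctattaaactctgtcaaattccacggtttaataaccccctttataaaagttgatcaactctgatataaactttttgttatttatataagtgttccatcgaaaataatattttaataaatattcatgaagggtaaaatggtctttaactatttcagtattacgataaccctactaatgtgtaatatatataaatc
AT4G31700 (S6) (chr4:15347805-15348054, minus strand): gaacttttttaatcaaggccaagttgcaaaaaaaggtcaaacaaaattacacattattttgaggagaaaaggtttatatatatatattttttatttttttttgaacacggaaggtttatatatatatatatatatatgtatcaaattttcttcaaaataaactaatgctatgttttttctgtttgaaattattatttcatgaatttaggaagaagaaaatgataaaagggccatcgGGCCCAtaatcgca
AT5G10360 (S6) (chr5:3260255-3260504, minus strand): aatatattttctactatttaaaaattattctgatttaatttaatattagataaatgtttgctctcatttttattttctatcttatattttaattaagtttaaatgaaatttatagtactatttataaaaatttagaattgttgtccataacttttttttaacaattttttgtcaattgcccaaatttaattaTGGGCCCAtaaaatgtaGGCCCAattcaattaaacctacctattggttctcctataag

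All 3 S18 genes carried a telo box (AAACCCTA on either strand) across or within the first bases of the gene. The 28 bases around each are given because the motif is shared by copies whose falls differed, with the box in capitals.
PFL (S18) (chr1:8067869-8067896, plus strand): ttaggttggaAAACCCTAaatatgccgc
AT1G34030 (S18) (chr1:12371544-12371571, minus strand): gaacaaaaaaAAACCCTAgctcacgctg
RPS18C (S18) (chr4:6173708-6173735, plus strand): aatcattgaaAAACCCTAgcagacctct
In these genes the box lay on the strand of the gene. Of the S6 genes, AT5G10360 had a telo box in its first transcribed bases and AT4G31700 had none.

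Across the 56 genes, both motifs were searched on both strands in a window from 250 bases before to 50 bases after the gene start, with overlapping matches counted separately, so that the palindrome TGGGCCCA counts as 2 site II matches. A telo box was found in 29 genes (51.8%), against 6.22% of 27443 nuclear protein-coding genes, and site II in 45 (80.4%), against 21.7%. Among all nuclear genes that were tested, which leaves out weakly transcribed ones, the shares were 5.58% and 26.3%. The telo box was in 20 of 33 small-subunit genes, 9 of 20 large-subunit genes and 0 of 3 RACK1 genes, and site II was in 24, 18 and 3 of them. The other 166 cytosolic ribosomal protein genes had 46.4% with a telo box and 75.3% with site II, and the 28 plastid ones 14.3% and 42.9%. Most telo boxes lay across or after the gene start: in the upstream bases alone 8 of the 56 genes had one. The median log2 fold change in -Fe-P against +Fe+P at 76 h was -1.11 for the 29 genes with a telo box and -1.37 for the 27 without, and -1.22 for the 45 genes with site II and -1.26 for the 11 without. The 5 genes with neither motif had a median of -1.26. The 27 genes without a telo box included all 3 RACK1 genes, while 20 of the 29 with one were small-subunit genes. The part of subunit and of RACK1 in the telo box contrast was not tested, and all these medians are a description only. A match of letters does not show that a factor binds there.

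**Figure D5:**
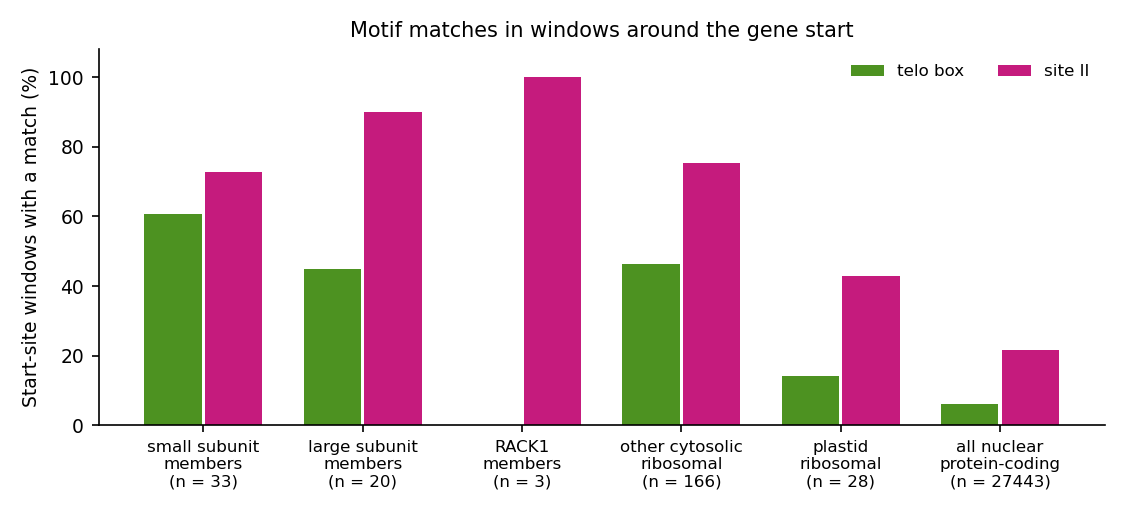
Percent of genes with a telo box or a site II motif between 250 bases before and 50 bases after the gene start, by gene set. The telo box was in 60.6% of the small-subunit genes and 6.22% of all nuclear protein-coding genes, and site II in 90% of the large-subunit genes and 21.7% of all.

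The rest of the translation machinery was read from lists of genes by function. Of 166 other cytosolic ribosomal protein genes, 151 were tested, and 18, 143 and 149 of them passed as lower in -Fe-P against the +Fe+P controls at the 3 times, with 112 called at 76 h and a median of -1.18. The lowest were genes for L13a (AT3G07110, -1.57) and S20 (AT3G47370, -1.55). The 2 that did not pass at 76 h were the L7 gene AT3G13580 (-0.14) and the L35a gene AT1G74270 (-0.16). The 28 ribosomal proteins of the plastid, which are imported and belong to another kind of ribosome, had 0, 1 and 20 genes lower and none called, with a median of -0.31 at 76 h. The lowest of them was the gene for L27 (AT5G40950, -0.72). Among 23 initiation and elongation factor genes 10, 16 and 19 were lower, and at 76 h 2 were called, both for the elongation factor eEF1A (AT5G60390, -1.44, and AT1G07930, -1.06), while 1 gene for eIF5A (AT1G69410, 0.52) was higher. All 7 genes for nucleolar proteins that process and modify ribosomal RNA were lower at 52 and 76 h. FIB2 (AT4G25630), one of the fibrillarins, was at -1.93 and CBF5 (AT3G57150), which makes pseudouridine, at -1.31. In -Fe+P against +Fe+P, 6 of these 7 passed as higher at 76 h, and the 7 genes ranged from 0.13 to 0.56 beside a median of 0.11 over all genes.

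The TOR pathway controls ribosome synthesis and phosphorylates S6 through S6 kinase. Of 7 listed genes, 1 was lower in -Fe-P against +Fe+P at 76 h, against 21.9% of all genes. Another 3 were higher, a count that has no share of all genes beside it. S6K2 (AT3G08720), a gene for S6 kinase, was the exception in size. S6K2 stood at 4.37, 4.23 and 4.90 TPM in the 3 +Fe+P samples at 76 h, at 18, 22.5 and 16.7 TPM in -Fe+P and at 97.1, 65.6 and 103 TPM in -Fe-P. Its groups were separate in rising order from +Fe+P to -Fe-P, and its log2 fold change in -Fe-P against +Fe+P was 1.83, 3.51 and 4.13 at the 3 times, with 1.96 in -Fe+P at 76 h. Its neighbour and close copy S6K1 (AT3G08730) was at 0.09 in -Fe-P (limma adjusted p = 0.376) and TAP46, which binds phosphatases of this pathway, at -0.23. Most markers of dividing cells were lower in -Fe-P at 76 h, which was not so at 39 or 52 h. Of 15 such genes, 12 were lower and 1 was higher in -Fe-P at that time, with PCNA1 (AT1G07370, -1.47) called. Their summed level was 212 to 228 TPM with both nutrients, 179 to 187 TPM without iron and 136 to 146 TPM with both deficient, and none was at 0. At 52 h 2 were lower and 1 was higher, and the summed ranges in +Fe+P and -Fe-P overlapped (241 to 248 and 224 to 265 TPM), while all 56 genes were already lower. At 39 h 5 of the 15 markers passed as higher and 0 as lower, with a median log2 fold change of 0.21 and a summed level of 302 to 346 TPM in -Fe-P and 274 to 281 TPM in the controls, while 17 of the 56 genes passed as lower. Of all genes, 5.18%, 11.6% and 21.9% passed as lower at 39, 52 and 76 h. The markers higher in -Fe-P have no such share beside them, so those counts have no background. The part of dividing cells in the fall at 76 h was not tested. Root markers were highest in -Fe-P at 76 h (14.4 to 29.7 TPM summed, mostly the iron transporter gene IRT1), and their part was not tested.

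The genes most like the mean profile of the 53 ribosomal protein genes over the 27 samples were other cytosolic ribosomal protein genes: BBC1 (AT3G49010, L13, Pearson r = 0.998), AT1G67430 (L17, 0.997), AT1G33120 (L9, 0.996), AT3G07110 (L13a, 0.996) and AT4G16720 (L15, 0.995). Among the 56 genes themselves, r with the mean of the other ribosomal protein members ranged from 0.836 to 0.998 with a median of 0.982, and 50 of the 56 were above 0.95. The lowest were AT5G39850 (S9), AT5G59240 (S8) and RPS18C. The samples share media and times, so these correlations describe the pattern and have no test.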

How the data were processed

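Shoot poly(A) RNA was sequenced on a NextSeq 500, and the study aligned reads with HISAT2 to TAIR10 and used DESeq2, per the labels, the paper's methods and the submitters' processing notes. The authors deposited 1 table of TPM values for 27 samples and 33602 genes, 29156 of them above 0. Versions, the counting step, strand and how the TPM values were made are not given in the sources used here. The 56 genes and the other gene lists were chosen with earlier results of these data known.

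The 18910 genes whose mean over all samples reached 1 TPM were fitted on log2(TPM + 0.5) in R 4.3.3 by limma 3.58.1, which estimated 1 mean for each of the 9 groups, with all 27 samples sharing the spread, a mean trend in eBayes and Benjamini-Hochberg adjustment within each comparison. Depth was recovered from whole-read steps: for all 24561 genes with values in at least 10 samples the values came out whole within 0.02 reads. Paralog ratios were compared by exact permutation. The scripts were tested on simulated data. Python 3.11.15, numpy 2.4.6, pandas 2.3.3 and Biopython 1.88 were used.

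Sequences and coordinates are from RefSeq TAIR10.1. Single-sample values are printed for the RACK1 genes, the 4 lowest and 2 highest log2 fold changes of each subunit in -Fe-P against +Fe+P at 76 h, and the 3 families with the widest range. Other members are given by counts, ranges and group means, and each other list by its counts and at most 2 genes at either end. Alternatives were pseudocounts of 0.1 and 1, no filter or a mean of at least 5 TPM, fits on the 6 samples compared, median of ratios scaling, nuclear genes only, the replicate number as a block, eBayes without trend or robust, and leaving out each sample.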

Additional observations from a re-analysis of the deposited data

Results flagged for a closer look

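The response of 55 of the 56 genes in -Fe-P against +Fe+P was lower at 76 h than at 39 h in a limma test of the difference between both times (adjusted p below 0.05, median difference -0.96 on the log2 scale). Against -Fe+P the same test gave 54 genes (median -1.04). Both tests share the -Fe-P samples, and the 39 h group holds the library that stood apart.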

How the results depend on the processing

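Among the alternatives run, the counts of 56 genes lower in -Fe-P than in +Fe+P at 52 and 76 h stayed at least within 1.5 times, as did the 45 and 48 called at 76 h, and no direction of a called count reversed. The 39 h counts depended most on the settings: against +Fe+P the 17 genes became 9 in a fit of only the 6 samples compared and 6 to 36 with any 1 library left out, and against -Fe+P the 11 genes became 7 with no filter on low values, 0 with only the 6 samples and 1 to 37 with any 1 library left out. Of genes called at 52 h against +Fe+P there were 2 with a pseudocount of 1 and 7 with median of ratios scaling, in place of 4, and 2 to 6 with 1 library left out; against -Fe+P there were 1 to 4 with 1 library left out, in place of 1. Genes lower in -Fe+P than in +Fe+P were 5 with median of ratios scaling at 52 h and 0 to 2 with 1 library left out; at 76 h they were 0 with no filter or with nuclear genes only, 3 with median of ratios scaling and 0 to 1 with 1 library left out, in place of 1. From 39 to 52 h, 3 genes were lower in +Fe+P in the fit of 6 samples, in place of 0. The 2 genes lower in -Fe+P over that interval became 1 with a pseudocount of 0.1, 0 with no filter, without trend and with only the 6 samples, 1 with the replicate block, and 0 to 5 with 1 library left out. The causes were not tested.

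Same-numbered samples correlated between -0.42 and 0.36 in their deviations from the group means. All 3 pairs exceeded 0.1 only in -Fe+P against +Fe+P at 52 h, where the replicate block left 0 genes lower and 1 higher. With 3 pairs in each comparison, these correlations can neither show nor exclude a shared harvest or batch. With the replicate block, 18, 56 and 56 genes were lower in -Fe-P against the controls at the 3 times. Median of ratios scaling moved the share of all genes passing as lower at 76 h from 21.9% to 30.3%, gave 24 genes at 39 h and moved the members' median at 76 h from -1.22 to -1.34. Depth limits the least abundant copies most, such as AT5G59240 at 0.645 TPM in -Fe-P at 76 h. No alternative could tell fewer cells from less RNA per cell, and TPM shares hold no absolute amount.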
